A study of Saccharomyces cerevisiae with 12 samples.

Results

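The lysine synthesis genes described here are LYS1 (YIR034C), LYS2 (YBR115C), LYS4 (YDR234W), LYS5 (YGL154C), LYS9 (YNR050C), LYS12 (YIL094C), LYS14 (YDR034C), LYS20 (YDL182W) and LYS21 (YDL131W) of Saccharomyces cerevisiae, 9 of the 6256 genes with a probe on the array. They were chosen by locus name, as the enzymes of the pathway with its activator and its accessory enzyme. The choice was made with earlier results of these arrays known, among them low levels of LYS9 and LYS12 with furfural in the control strain. All 9 passed the filter on dim probes, as did 6083 genes in all.

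Fungi build lysine by the alpha-aminoadipate route, which starts with 2-oxoglutarate and acetyl-CoA and runs partly in mitochondria. Homocitrate synthase makes the entry step, homoaconitase and homoisocitrate dehydrogenase lead to 2-oxoadipate, and after transamination the aminoadipate is reduced and joined with glutamate into saccharopine, which is split to lysine. The activator Lys14 responds to the pathway intermediate alpha-aminoadipate semialdehyde, and lysine inhibits homocitrate synthase. The general amino acid activator Gcn4 also acts on many of these genes.

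The 12 arrays measured total RNA of 3 strains of the xylose-fermenting background MT8-1X after 6 h with 0 or 70 mM furfural, a sugar-derived aldehyde that is toxic to yeast. The control strain carries the source name MT8-1X/404-405, the strain that expresses TAL the name MT8-1X/TAL-405, and the strain that co-expresses TAL and ADH the name MT8-1X/TAL-ADH. The labels give no promoter, copy number or number of clones for the introduced genes and do not spell out TAL or ADH. Each of the 6 groups had 2 runs, and nothing says that the runs were separate cultures, so each p-value measures only the spread between these arrays, which may be technical. A level here is log2 of the probe's processed intensity relative to the 75th percentile of the gene probes on its array, and a difference of 1 is a doubling of signal. The comparisons ask how furfural and the introduced genes change expression.

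The profiles of the arrays follow neither strain nor dose alone and form 2 sets of 6 arrays. The first principal component (61.5% of the variance) put TAL without furfural beside control and TAL with it, at scores of 31.6 to 54.9. It put TAL-ADH with furfural beside TAL-ADH and control without it, at scores of -47.0 to -39.1. Every result that uses them is given by its label, and a comparison cannot be made without a group it rests on. TAL1, the yeast transaldolase gene, was lowest in the control strain at each dose (mean 2.58 and 0.71) and stood at 2.82 to 4.02 in the other 4 groups. ADH1, an alcohol dehydrogenase gene, had means at 0 and 70 mM of 6.30 and 5.38 in control and 4.92 and 4.54 in TAL. In TAL-ADH its means were 5.69 and 6.09. At 0 mM its runs 1 and 2 stood at 5.01 and 6.38 in TAL-ADH and at 6.21 and 6.38 in control. The groups overlapped there, and the lower mean of TAL-ADH rests on run 1. Whether TAL1 or ADH1 is an introduced gene is not stated. The arrays lay on 3 slides with 2 groups each. TAL 0 mM shared a slide with TAL-ADH 0 mM, control 70 mM with TAL 70 mM, and control 0 mM with TAL-ADH 70 mM, and the scan dates divide the arrays in the same way. In a comparison across slides, slide and group cannot be told apart.

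All 7 spots of each lysine gene were well above background on every array and 0 were saturated. Over the 9 genes and 12 arrays the SD of the spots of a probe ran from 0.016 to 0.14 log2, with a median of 0.044. The spread between runs was larger, with a pooled SD from 0.12 for LYS21 to 0.83 for LYS1. An array measures an RNA pool, so less RNA per cell and fewer cells that hold it cannot be told apart.

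**Figure D1:**
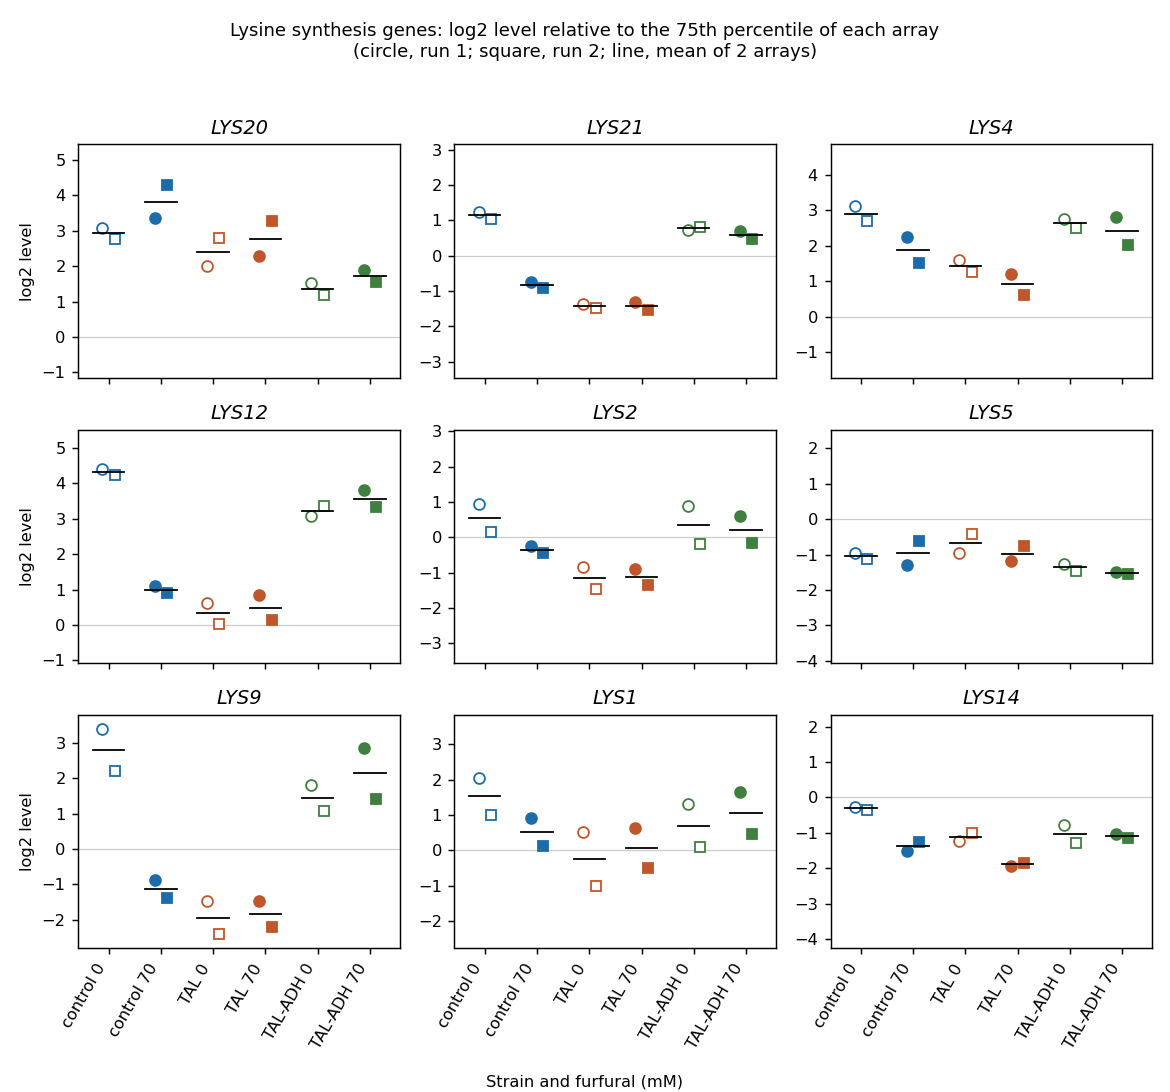
Log2 level of each lysine synthesis gene (y axis, relative to the 75th percentile of the array) in the 6 groups of strain and furfural dose (x axis, mM), with a circle for run 1, a square for run 2 and a line for their mean. LYS9, LYS12 and LYS21 are low on all 6 arrays of control 70 mM, TAL 0 mM and TAL 70 mM, while LYS20 is lowest in TAL-ADH.

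The entry step has a pair of genes, LYS20 and LYS21, each for a homocitrate synthase, and these paralogs had different patterns. LYS21 stood at 1.23 and 1.05 in runs 1 and 2 of control 0 mM and at -0.75 and -0.91 in control 70 mM. In TAL it stood at -1.37 and -1.49 at 0 mM and at -1.31 and -1.54 at 70 mM. In TAL-ADH it stood at 0.73 and 0.82 at 0 mM and at 0.70 and 0.47 at 70 mM. The lowest of the 6 arrays of control 0 mM and TAL-ADH, 0.47, lay above the highest of the other 6, -0.75.

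LYS20 stood at 3.09 and 2.78 in control 0 mM and at 3.37 and 4.28 in control 70 mM. In TAL it stood at 2.00 and 2.79 at 0 mM and at 2.29 and 3.26 at 70 mM. In TAL-ADH it stood at 1.53 and 1.20 at 0 mM and at 1.89 and 1.55 at 70 mM. LYS20 was thus highest in the control strain with furfural and lowest in TAL-ADH without it, and all 4 TAL-ADH arrays lay below the other 8. Relative to the mean of control 0 mM, the LYS20 signal gained on the LYS21 signal by 2.32 and 3.40 log2 in control 70 mM and by 1.58 to 3.01 on the 4 TAL arrays, and lost 0.60 to 1.42 on the 4 TAL-ADH arrays. The paralogs are alike in sequence and their probes may share signal. That sharing was not measured here.

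The next steps are those of LYS4, homoaconitase, and LYS12, homoisocitrate dehydrogenase. LYS12 stood at 4.40 and 4.25 in control 0 mM and at 1.09 and 0.90 in control 70 mM. It stood at 0.62 and 0.04 in TAL 0 mM, 0.86 and 0.13 in TAL 70 mM, 3.09 and 3.38 in TAL-ADH 0 mM, and 3.81 and 3.33 in TAL-ADH 70 mM. Its 2 sets of 6 arrays were 2.00 log2 apart at their nearest points. LYS4 stood at 3.13 and 2.69 in control 0 mM, 2.24 and 1.52 in control 70 mM, 1.60 and 1.25 in TAL 0 mM, 1.21 and 0.62 in TAL 70 mM, 2.77 and 2.51 in TAL-ADH 0 mM, and 2.80 and 2.03 in TAL-ADH 70 mM. The order of LYS4 was the same in outline but its sets met, since control 70 mM run 1 lay above TAL-ADH 70 mM run 2.

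Aminoadipate is reduced by the product of LYS2, alpha-aminoadipate reductase, which the phosphopantetheinyl transferase encoded by LYS5 activates. LYS2 stood at 0.93 and 0.14 in control 0 mM, -0.26 and -0.45 in control 70 mM, -0.85 and -1.45 in TAL 0 mM, -0.90 and -1.35 in TAL 70 mM, 0.88 and -0.19 in TAL-ADH 0 mM, and 0.59 and -0.17 in TAL-ADH 70 mM. Its 2 sets were separated by 0.071 log2 at their nearest points, less than its pooled SD of 0.50. LYS5 had the smallest range of group means, from -1.51 in TAL-ADH 70 mM to -0.68 in TAL 0 mM, and its 3 highest arrays were run 2 of TAL 0 mM, control 70 mM and TAL 70 mM. It went with the opposite sign to LYS2 over the 12 arrays (Pearson r = -0.56, a description, since the arrays share groups and slides).

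The last steps are catalysed by the products of LYS9, the glutamate-forming saccharopine dehydrogenase, and LYS1, the lysine-forming saccharopine dehydrogenase. LYS9 had the widest range of the 9 genes. It stood at 3.39 and 2.21 in control 0 mM and at -0.86 and -1.37 in control 70 mM. It stood at -1.48 and -2.41 in TAL 0 mM, -1.47 and -2.19 in TAL 70 mM, 1.81 and 1.07 in TAL-ADH 0 mM, and 2.87 and 1.42 in TAL-ADH 70 mM. The lowest of the 6 arrays of control 0 mM and TAL-ADH lay 1.93 log2 above the highest of the other 6. In the order of group means, control 0 mM overlapped with TAL-ADH 70 mM, which overlapped with TAL-ADH 0 mM. TAL 70 mM overlapped with TAL 0 mM, and control 70 mM, between these clusters, overlapped with neither side.

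LYS1 stood at 2.06 and 1.00 in control 0 mM, 0.91 and 0.12 in control 70 mM, 0.53 and -1.01 in TAL 0 mM, 0.62 and -0.49 in TAL 70 mM, 1.30 and 0.09 in TAL-ADH 0 mM, and 1.66 and 0.47 in TAL-ADH 70 mM. Its group means had the order of those of LYS9, but every group overlapped with the next. LYS14, the activator gene, stood at -0.26 and -0.34 in control 0 mM, -1.50 and -1.26 in control 70 mM, -1.22 and -1.01 in TAL 0 mM, -1.94 and -1.85 in TAL 70 mM, -0.78 and -1.29 in TAL-ADH 0 mM, and -1.04 and -1.15 in TAL-ADH 70 mM. Both arrays of control 0 mM lay above the other 10 for LYS14, and both arrays of TAL 70 mM lay below them.

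In the control strain the furfural comparison is the one in which the low levels of LYS9 and LYS12 were already known, so its values are a description with no test. LYS9 was 15.1-fold lower at 70 mM than at 0 mM (log2 difference -3.92 ± 0.58 SE, n = 2 against 2), LYS12 10.05-fold lower (-3.33 ± 0.31) and LYS21 3.92-fold lower (-1.97 ± 0.20). LYS9 had the second lowest difference of the 6083 genes and LYS12 the rank 27 from the lowest. LYS14 (-1.08 ± 0.23), LYS4 (-1.03 ± 0.36), LYS1 (-1.01 ± 0.69) and LYS2 (-0.89 ± 0.44) were lower by smaller amounts, LYS20 was higher (0.89 ± 0.42) and LYS5 differed by 0.09 ± 0.29. Both arrays at 70 mM lay below both at 0 mM for 7 of the 9 genes, and above them for LYS20 alone. Of all 6083 genes 42.6% lay below in this way and 28.5% above, and the rule's knowledge of this comparison means that nothing is read from the count. The median difference was -1.03 for the lysine genes and -0.18 for all genes.

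**Figure D2:**
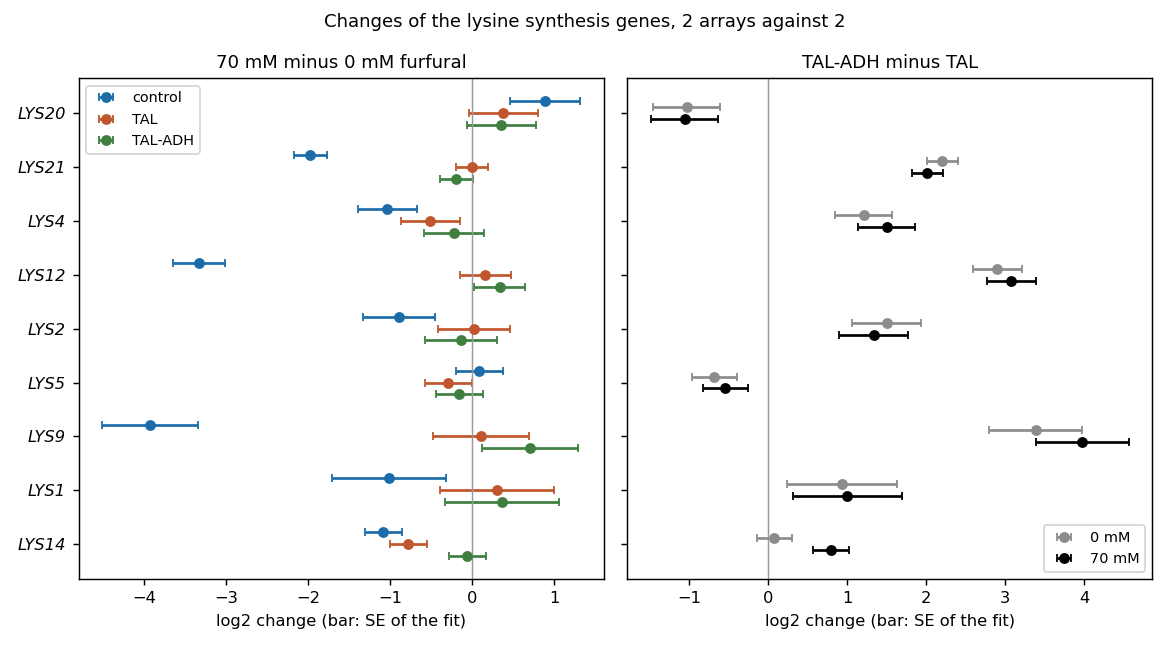
Log2 change of each lysine synthesis gene (x axis, points with the SE of the fit as bars), at left for 70 minus 0 mM furfural in each strain and at right for TAL-ADH minus TAL at each dose. LYS9, LYS12 and LYS21 lie far below 0 for furfural in the control strain only, and far above 0 for TAL-ADH minus TAL at both doses.

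The strains TAL and TAL-ADH were compared between doses and with each other, and these changes use no control array. The genes were chosen with low LYS9 and LYS12 in control 70 mM known. TAL-ADH minus TAL runs along the same division of arrays. The profile of control 0 mM correlated with TAL-ADH at 0.983 (0 mM) and 0.992 (70 mM). That of control 70 mM correlated with TAL at 0.940 (0 mM) and 0.973 (70 mM). The calls between TAL-ADH and TAL are therefore not independent of the choice of genes. The spread behind each SE and p-value came from all 12 arrays, those of the control strain included. In the arrays labelled TAL, 0 of the 9 lysine genes passed the test between 70 and 0 mM by limma (0.0329% of all genes were called higher, 0.0658% lower and 0.0986% in all, adjusted p of the lysine genes 0.188 to 0.999). Their changes ran from -0.78 ± 0.23 for LYS14 to 0.38 ± 0.42 for LYS20, with a median of 0.03 against -0.08 for all genes. For 2 of the 9, LYS14 and LYS4, both arrays at 70 mM lay below both at 0 mM. Of all genes 26.6% did so, and nothing is read from the count. The interval of the change (95%) was -1.21 to 1.43 for LYS9, -0.55 to 0.87 for LYS12 and -0.45 to 0.45 for LYS21. Whether the control strain differs from TAL in the furfural effect was not tested.

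In the arrays labelled TAL-ADH, 0 of the 9 lysine genes passed the furfural test by limma either (0% of all genes were called higher and 0.0329% lower, adjusted p = 0.999 for each lysine gene). The changes ran from -0.22 ± 0.36 for LYS4 to 0.71 ± 0.58 for LYS9, with a median of -0.06 against -0.01 for all genes. The intervals (95%) were -0.61 to 2.03 for LYS9, -0.37 to 1.04 for LYS12 and -0.64 to 0.26 for LYS21. The difference between TAL-ADH and TAL in the furfural effect was called for 0 of 9 genes, and for 0% of all 6083 genes by limma (406 had an unadjusted p under 0.05, and 58 were called without TAL-ADH 0 mM run 1). For the lysine genes it ran from -0.19 for LYS21 to 0.72 for LYS14 (adjusted p 0.745 to 0.999). Each of these furfural comparisons runs across slides.

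Without furfural, TAL-ADH held more RNA of 5 of the 9 lysine genes than TAL by limma. This comparison lies within 1 slide, but between the 2 sets of arrays. The low levels of LYS9 and LYS12 known when the genes were chosen fell along the same division. On the first principal component TAL 0 mM scored 31.6 and 43.5 and TAL-ADH 0 mM -39.1 and -42.0. LYS9 was 10.4-fold higher (log2 3.38 ± 0.58 SE, n = 2 against 2, adjusted p = 0.00338), LYS12 7.48-fold higher (2.90 ± 0.31, adjusted p = 0.000277) and LYS21 4.61-fold higher (2.21 ± 0.20, adjusted p = 0.000114). LYS2 (1.50 ± 0.44, adjusted p = 0.0340) and LYS4 (1.21 ± 0.36, adjusted p = 0.0366) were also higher. LYS1 (0.93 ± 0.69), LYS14 (0.08 ± 0.23), LYS5 (-0.68 ± 0.29) and LYS20 (-1.03 ± 0.42) did not pass, and for the last 2 both TAL-ADH arrays lay below both TAL arrays (29.1% of all genes). Of all genes, 12.7% were called higher and 13% lower, 25.7% in all, and the median change was 1.21 for the lysine genes and 0.04 for all genes. LYS4 did not pass without any 1 of the 4 arrays (adjusted p 0.0648 to 0.178) and LYS2 not without TAL 0 mM run 2 (0.184) or TAL-ADH 0 mM run 1 (0.165), while LYS9, LYS12 and LYS21 passed under all 12 alternatives.

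At 70 mM furfural, TAL-ADH held more RNA of 6 of the 9 lysine genes than TAL by limma, on different slides and again between the 2 sets of arrays. LYS9 was 15.8-fold higher (3.98 ± 0.58, n = 2 against 2, adjusted p = 0.00115), LYS12 8.44-fold higher (3.08 ± 0.31, adjusted p = 0.000168) and LYS21 4.04-fold higher (2.01 ± 0.20, adjusted p = 0.000146). LYS4 was higher by 1.50 ± 0.36 (adjusted p = 0.0130), LYS2 by 1.33 ± 0.44 (adjusted p = 0.0448) and LYS14 by 0.80 ± 0.23 (adjusted p = 0.0256). LYS1 (1.00 ± 0.69), LYS5 (-0.54 ± 0.29) and LYS20 (-1.06 ± 0.42, adjusted p = 0.0866) did not pass. Of all genes 18% were called higher and 13.9% lower, 31.9% in all, and the medians were 1.33 for the lysine genes and 0.10 for all genes. LYS2 and LYS14 did not pass without any 1 of the 4 arrays (adjusted p 0.0627 to 0.238 and 0.092 to 0.126) nor by normexp, quantile normalization or median scaling, and LYS4 not without TAL 70 mM run 2 (0.0973) or TAL-ADH 70 mM run 1 (0.0986). LYS9 was 9.54-fold higher without TAL-ADH 70 mM run 1 and 26.0-fold without run 2, and LYS20 passed as lower without TAL 70 mM run 1 (-1.54, adjusted p = 0.0429).

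The comparisons with the control strain share its arrays with the furfural comparison above and are given as values only. TAL minus control at 0 mM gave -4.75 ± 0.58 for LYS9, -3.99 ± 0.31 for LYS12 and -2.57 ± 0.20 for LYS21, and 7 of the 9 genes had both TAL arrays below both control arrays (33.8% of all genes), and LYS5 both above (35.2%). At 70 mM, where both groups lay on 1 slide, the differences were smaller, at -0.71 ± 0.58 for LYS9, -0.50 ± 0.31 for LYS12, -0.60 ± 0.20 for LYS21 and -1.05 ± 0.42 for LYS20. There too 7 of the 9 genes were lower without overlap (18.3% of all genes) and 0 higher (25.4%), with a median of -0.60 against 0.02 for all genes.

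TAL-ADH minus control at 0 mM gave -1.57 ± 0.42 for LYS20, the rank 8 from the lowest of all genes, -1.36 ± 0.58 for LYS9 (rank 13), -1.09 ± 0.31 for LYS12 (rank 21) and -0.73 ± 0.23 for LYS14. Both TAL-ADH arrays lay below both control arrays for 6 of the 9 genes (17.7% of all genes) and above them for 0 (21%), and the median was -0.73 against 0.02 for all genes. At 70 mM the differences had the other sign for LYS9 (3.26 ± 0.58), LYS12 (2.57 ± 0.31) and LYS21 (1.42 ± 0.20), and LYS20 stood 4.29-fold lower in TAL-ADH (-2.10 ± 0.42). There 5 of the 9 genes were higher without overlap (42.6% of all genes) and 2 lower (27.7%). In an additive fit over the 3 strains the furfural difference of LYS9 was -1.03 ± 0.69, of LYS12 -0.94 ± 0.54 and of LYS21 -0.72 ± 0.29. With slide as a block they were -3.33 ± 1.01, -3.15 ± 0.54 and -2.16 ± 0.34, but that fit has 6 terms for 6 groups and no slide holds both doses of 1 strain. Those values therefore rest on the assumption that strain, dose and slide add, and are no measure of furfural apart from slide.

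The 2 runs of a group differed in a recurring way in several of these genes. LYS1 was higher in run 1 than in run 2 in 6 of 6 groups, by 0.79 to 1.53 log2 with a median of 1.15, as were LYS9 (median 0.84), LYS2 (0.68) and LYS4 (0.51). Of all genes 16.2% were higher in run 1 in all 6 groups, and 13.5% were lower. The main fit has no term for run, so such differences add to its spread. The result for LYS1 with a run block is given in the part on processing. LYS20 was higher in run 1 by 0.32 to 0.34 in control 0 mM and both TAL-ADH groups, and lower in run 1 by 0.79 to 0.97 in control 70 mM and both TAL groups. LYS21 differed between runs by at most 0.23.

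**Figure D3:**
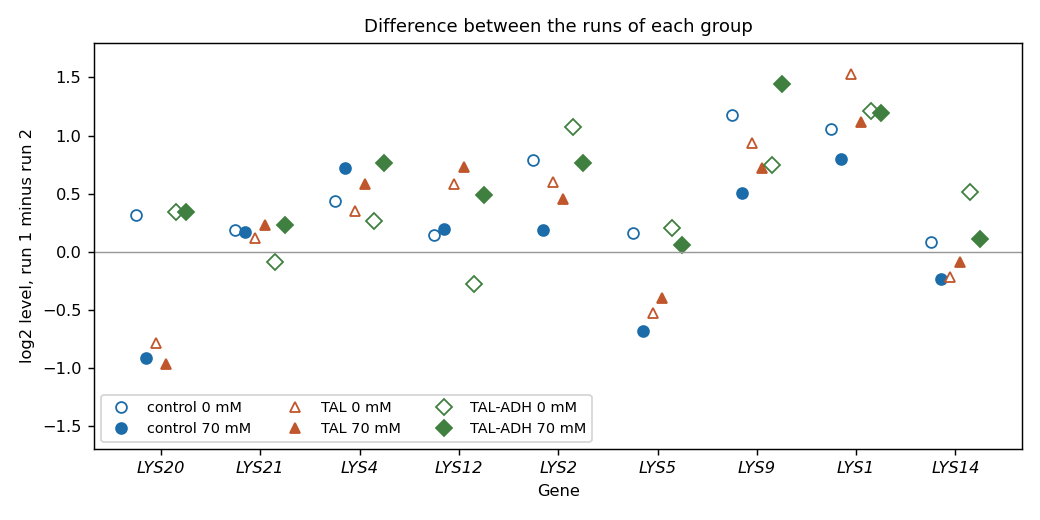
Run 1 minus run 2 in log2 level (y axis) for each lysine synthesis gene (x axis), with 1 point for each of the 6 groups. All 6 points lie above 0 for LYS1, LYS9, LYS2 and LYS4, and the points of LYS20 and LYS5 fall on both sides of it.

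Across the 12 arrays LYS1, LYS2, LYS4, LYS9, LYS12 and LYS21 went together, with Pearson r from 0.69 (LYS1 with LYS21) to 0.99 (LYS12 with LYS21) in their 15 pairs. LYS14 had r from 0.52 to 0.76 with these 6 genes, LYS5 from -0.63 to -0.55 and LYS20 from -0.41 to -0.16. The arrays share groups, slides and the 2 sets described above, so these are descriptions of 12 arrays in 6 groups. The 5 genes outside the pathway most like LYS9 were ESC8 (r = 0.975), PUS7 (0.975), SWM2 (0.974), EMG1 (0.973) and MLO50 (0.971). The most like gene was RPS25A, a ribosomal protein gene, for LYS12 (0.983), PRY2 for LYS21 (0.982), ILV6, the acetolactate synthase regulatory subunit gene, for LYS2 (0.977), and ILV1, the threonine deaminase gene, for LYS4 (0.965). For LYS1 it was COG1 (0.973), for LYS20 CSL4 (0.970), for LYS14 PFK2 (0.950) and for LYS5 the open reading frame YKL177W (0.923).

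Of 9 genes that adjoin the pathway, 2 were called between TAL-ADH and TAL at 0 mM and 3 at 70 mM by limma, against 25.7% and 31.9% of all genes, so their share is near that of all genes. CCS1, also called LYS7, encodes the copper chaperone of superoxide dismutase, whose loss makes yeast require lysine in air. It stood at 0.47 and 0.23 in control 0 mM, 2.91 and 3.29 in control 70 mM, 2.61 and 2.62 in TAL 0 mM, 2.40 and 2.62 in TAL 70 mM, 0.82 and 0.03 in TAL-ADH 0 mM, and 0.54 and -0.20 in TAL-ADH 70 mM. It was thus high on the 6 arrays on which LYS9 was low. TAL-ADH minus TAL was -2.19 ± 0.33 at 0 mM (limma adjusted p = 0.00161) and -2.34 ± 0.33 at 70 mM (adjusted p = 0.000908), and both calls held under all 12 alternatives. ARO9, an aromatic aminotransferase gene, was lower too, by -0.997 ± 0.25 (adjusted p = 0.0201) and -1.08 ± 0.25 (adjusted p = 0.0116). It did not pass without any 1 of the 4 arrays at 0 mM, nor at 70 mM without TAL 70 mM run 1 or either TAL-ADH array.

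GCN4 stood at 4.25 and 4.50 in control 0 mM, 3.37 and 3.80 in control 70 mM, 3.32 and 3.72 in TAL 0 mM, 2.63 and 2.59 in TAL 70 mM, 3.80 and 3.92 in TAL-ADH 0 mM, and 4.29 and 4.37 in TAL-ADH 70 mM. As for LYS14, both arrays of TAL 70 mM were the lowest. GCN4 was 3.29-fold higher in TAL-ADH than in TAL at 70 mM (1.72 ± 0.23, limma adjusted p = 0.000727) and did not pass at 0 mM (0.34 ± 0.23). Gcn4 protein is set largely by translation of its messenger RNA, which arrays do not measure. ACO1, the aconitase gene of the tricarboxylic acid cycle, did not pass in TAL-ADH against TAL (0.18 ± 0.46 at 0 mM and 0.61 ± 0.46 at 70 mM). ARO8 is an aminotransferase gene that acts on aminoadipate, ODC1 and ODC2 are carrier genes, LYP1 is the lysine permease gene and MKS1 a regulator gene. These genes did not pass in any of the 5 tests of changes that use no control array. None of the 9 adjoining genes passed for furfural in TAL or in TAL-ADH by limma.

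**Figure D4:**
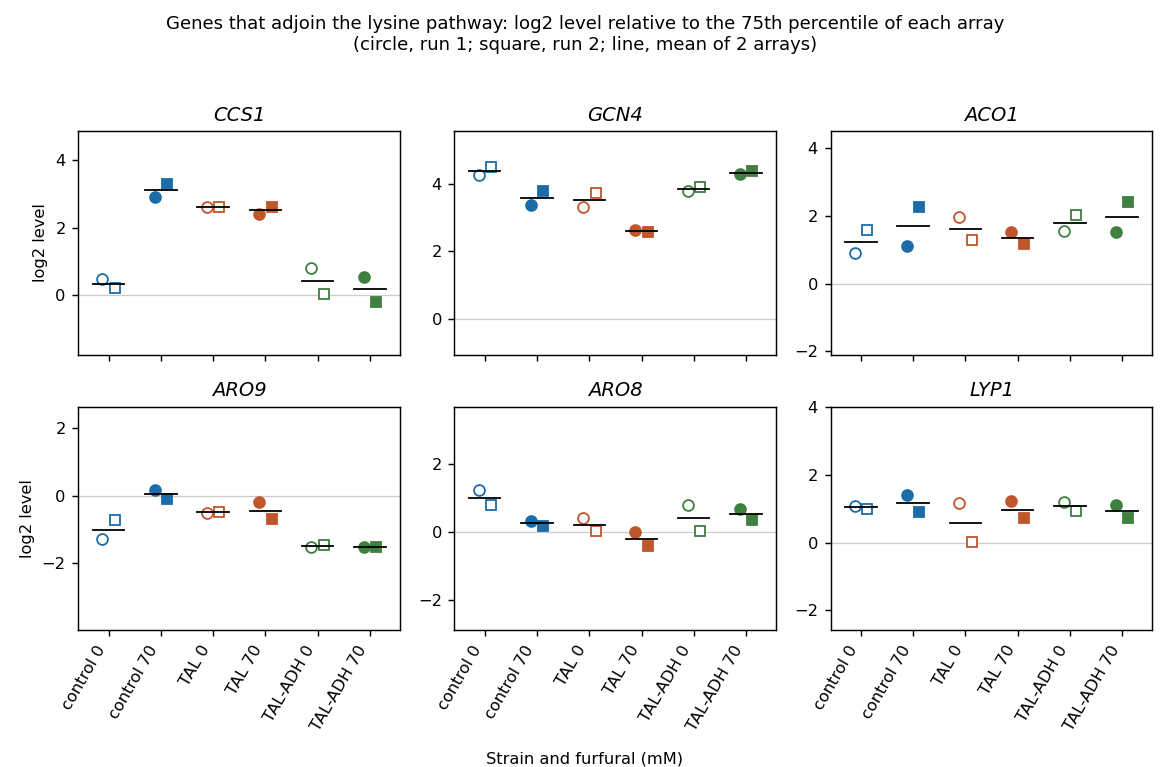
Log2 level (y axis, relative to the 75th percentile of the array) of 6 genes that adjoin the lysine pathway in the 6 groups of strain and furfural dose (x axis, mM), with a circle for run 1, a square for run 2 and a line for their mean. CCS1 is high on all arrays of control 70 mM, TAL 0 mM and TAL 70 mM.

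In lists of other amino acid pathways, 0 to 2 genes a list were called between TAL-ADH and TAL by limma, beside 25.7% of all genes at 0 mM and 31.9% at 70 mM. Of 9 arginine genes 0 were called at either dose (medians 0.34 at 0 mM and -0.24 at 70 mM), with the largest changes in ARG4 (1.99 ± 1.17) and ARG7 (1.00 ± 0.81) at 0 mM and in ARG4 (1.40 ± 1.17) and CPA1 (-0.75 ± 0.46) at 70 mM. Of 7 histidine genes HIS3 was left out as dim and 0 of the other 6 were called (medians 1.22 and 0.43), with HIS4 at 1.802 ± 0.69 and HIS7 at 1.64 ± 1.13 at 0 mM and HIS1 at 1.30 ± 0.96 and HIS7 at 0.91 ± 1.13 at 70 mM. Of 12 aromatic genes only ARO4, a gene of the first aromatic step, was called, higher by 3.19 ± 0.91 at 0 mM (adjusted p = 0.031) and 3.57 ± 0.91 at 70 mM (adjusted p = 0.0162), with list medians of 0.48 and 0.15. Next in size, without passing, were PHA2 at 0 mM (1.07 ± 0.59) and TRP4 at 70 mM (-1.29 ± 0.55). ARO4 did not pass without run 2 of TAL or either TAL-ADH array at the same dose, and its change was 2.15 without TAL run 2 and 4.24 without TAL run 1 at 0 mM, and 2.34 and 4.79 at 70 mM. Of 5 genes from aspartate to threonine, THR1, homoserine kinase, was called at 0 mM (1.53 ± 0.39, adjusted p = 0.0199) and THR4, threonine synthase, at both (1.63 ± 0.52, adjusted p = 0.0473, and 1.56 ± 0.52, adjusted p = 0.0479), with list medians of 1.49 and 0.77. HOM2 had the largest change of this list at 70 mM but did not pass (1.74 ± 0.87). THR1 and THR4 did not pass without run 2 of TAL or either TAL-ADH array of the dose, and THR4 at 70 mM stood at 0.95 without TAL run 2 and 2.17 without TAL run 1. At 0 mM the lysine median of 1.21 lay below those of the histidine and aspartate lists, and at 70 mM the lysine median of 1.33 lay above all 4. In TAL 0 mM, run 1 minus run 2 ran from -1.56 (TRP1) to 3.05 (ARG4) log2 in these lists. In the lysine genes it ran from -0.79 (LYS20) to 1.53 (LYS1). The fit has no term for run, so such differences widen its SE. Whether the lysine genes differ from these lists was not tested.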

How the data were processed

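Total RNA was labelled with Cy3 and hybridised to 12 single-colour Agilent arrays. The deposited scanner files give, per the file headers, a processed intensity that was background-subtracted and detrended within each array (Agilent Feature Extraction, version 10.1.1.1), and a raw median intensity. The log2 values of the deposited table are relative to each array's 75th percentile and centred per probe, as found from the values and not stated in the sources used here. Each level is the mean log2 processed intensity of the unmarked spots (7 per probe) minus its array's 75th percentile over 6256 gene probes. A gene was kept where over 50% of its spots were well above background on both arrays of at least 1 group (6083 kept, 173 dim). Names come from the RefSeq gene table, which matched 5756 probes. Limma 3.58.1 in R 4.3.3 fitted a mean for each of 6 groups, leaving 6 residual degrees of freedom, and a call is a Benjamini-Hochberg adjusted p under 0.05 over all kept genes. The code was tested on simulated data. The genes and lists were chosen with earlier results of these data known. The text names all 9 lysine genes, 9 adjoining genes (1 more of the rule is not reported here), the 2 largest changes and each call of 4 other lists, and the genes most like each lysine gene by Pearson r. The 5 comparisons with control-strain arrays were not tested. Alternatives were normexp on raw medians (offset 50), quantile normalization, median scaling, the deposited table, 2 other filters, only the groups compared, a run block and leaving out each array. The number of arrays limits the precision. No sequence was used.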

Additional observations from a re-analysis of the deposited data

Results flagged for a closer look

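For 4 lysine genes both TAL-ADH arrays lay below both control arrays without furfural and above them at 70 mM. Of all genes 17.7% lay below in this way without furfural, and 42.6% lay above at 70 mM. The share of all genes with both was not counted, so nothing is read from the count of 4. LYS9 differed by -1.36 at 0 mM and 3.26 at 70 mM, LYS12 by -1.09 and 2.57, LYS14 by -0.73 and 0.29, and LYS21 by -0.36 and 1.42 (log2, TAL-ADH minus control). The difference between doses was not tested, since these comparisons use the control arrays from which the genes became known, and it rests on the arrays labelled TAL-ADH 70 mM, whose profile lies with those of control and TAL-ADH without furfural.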

How the results depend on the processing

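The 11 calls of lysine genes between TAL-ADH and TAL kept their direction under all 12 alternatives, and the calls of LYS9, LYS12 and LYS21 also passed under all of them. The 5 lysine genes called at 0 mM became 3 when only the groups compared were fitted, where fewer arrays give the spread (that fit also ended the calls of ARO9, THR1 and THR4 at 0 mM and of LYS14 at 70 mM), and the count ran from 3 to 4 with an array left out. At 70 mM, 6 were called, and the count ran from 3 to 5 with an array left out, the 5 including LYS20, which was not among the 6. With run as a replicate block LYS1 passed as well (adjusted p 0.00621 and 0.00366), for 6 at 0 mM and 7 at 70 mM. The labels tie the runs of different groups to no shared culture, but between groups their deviations correlated at 0.044 to 0.86 (15 pairs, all above 0). What the runs of 1 number share was not tested. THR4 also missed the threshold without the filter on dim probes at both doses, and by normexp and median scaling at 70 mM. All genes called were 1566 at 0 mM against 651 with only the groups compared, 2499 with the replicate block and 723 to 1559 with an array left out. At 70 mM they were 1940 against 951 to 1526 with an array left out, and those higher were 1092 of 1940 against 722 of 1534 by normexp, 961 of 1907 by quantile normalization and 895 of 1899 by median scaling, which moved the median change of all genes from 0.10 to -0.042, 0.014 and -0.034. For furfural in TAL they were 6 against 55 with the block, 1 by normexp, 0 with only the groups compared, 3 over genes detected on all arrays and 1 to 2 with an array left out. For furfural in TAL-ADH they were 2 against 0 to 46 with an array left out, and for the difference in the furfural effect 0 against 0 to 58. With an array left out, the lysine median ran from -2.08 to -1.27 for TAL minus control at 0 mM, from -0.95 to -0.31 for TAL-ADH minus control at 0 mM and from 0.18 to 0.94 at 70 mM. Some of the changes that were not called turned sign with an array left out, and only those are listed. For furfural in TAL the ranges were -0.46 to 1.07 (LYS1), -0.27 to 0.33 (LYS2), -0.36 to 0.58 (LYS9), -0.20 to 0.53 (LYS12), -0.10 to 0.87 (LYS20) and -0.11 to 0.12 (LYS21). For furfural in TAL-ADH they were -0.23 to 0.97 (LYS1), -0.67 to 0.40 (LYS2), -0.60 to 0.16 (LYS4), -0.017 to 1.43 (LYS9) and -0.31 to 0.20 (LYS14), and for LYS14 between TAL-ADH and TAL at 0 mM -0.18 to 0.33. For the difference in the furfural effect they were -0.70 to 0.83 (LYS1), -0.70 to 0.37 (LYS2), -0.093 to 0.67 (LYS4), -0.13 to 0.40 (LYS5), -0.13 to 1.32 (LYS9), -0.19 to 0.54 (LYS12) and -0.51 to 0.46 (LYS20). That difference also turned for LYS20 by normexp (0.069) and for LYS1 by quantile normalization (-0.011) and median scaling (-0.050). The cause of these turns was not tested.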
